A study of Mus musculus with 2 samples.

Results

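Brown adipocyte nuclei that held at least 1 UMI of Ucp1 and no UMI of Acly, Fasn or Scd1 were described in 2 single-nucleus RNA libraries of mouse brown adipose tissue. They numbered 88 of 1077 adipocyte nuclei in one library and 88 of 925 in the other, out of 2551 and 4321 deposited barcodes. A UMI is a molecular identifier that counts each captured molecule once. One library came from C57BL/6 mice, a standard inbred strain, kept at thermoneutrality, the range in which a mouse holds its temperature without added heat production (TN). The second came from C57BL/6 mice exposed to acute cold for a transient period 4 days before collection (1cyc). Each library pooled nuclei from 5 mice, sorted by the DNA stain DAPI and encapsulated on the 10X Genomics platform. Nuclei cannot be traced to a mouse, and ages were not stated. No difference between conditions has a replicate check: an effect of the cold exposure and one of the library cannot be told apart.

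The members were chosen from the counts themselves. A barcode was kept if 200 or more genes were detected and mitochondrially encoded (mt-) UMIs made up under 5%. It counted as adipocyte when the summed UMIs of Pparg, Ppara, Acsl1, Pde3b, Lipe, Plin1, Acvr1c and Cidea were at least 4 and exceeded those of Pdgfra, Dcn, Lama2, Ptprb, Flt1, Mrc1, F13a1 and Ttn, genes of stromal, endothelial, macrophage and muscle cells. Levels of all these genes, of Ucp1 and of the 3 lipogenic genes are therefore a description and not a finding. Each member was set beside 2 comparator nuclei of its own library without Ucp1, Acly, Fasn or Scd1 UMIs, nearest in total UMIs and within 10%. All 88 members of each library found 2, which gave 176 comparators per library. A ratio is the CPM of the summed members over that of the summed comparators, where CPM is counts per 1000000 UMIs of the sum. Values in parentheses after a ratio, level or share are 95% intervals that cover counting error only.

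Ucp1 encodes the uncoupling protein of the inner mitochondrial membrane, which lets protons flow back without making ATP and so releases heat. In brown fat, noradrenaline acts through beta-adrenergic receptors, the stimulatory G protein and cyclic AMP to release fatty acids, activate the protein and raise transcription of its gene. Acly, Fasn and Scd1 encode enzymes of fatty acid synthesis, which makes fuel and membrane lipid from glucose carbon in the same tissue. Cidea encodes a lipid droplet protein and Slc36a2 an amino acid transporter, and both mark brown adipocytes.

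The promoters of Ucp1 and Pck1 are shown because Pck1 was the gene that ranked first for a higher level in the Ucp1-detected nuclei. Both are the 250 bases before the RefSeq start site on GRCm38.p6, plus strand, Ucp1 at chr8:83290098-83290347 and Pck1 at chr2:173152823-173153072. Capitals mark TGACG or its reverse complement CGTCA, the core letters of the cyclic AMP response element.
Ucp1: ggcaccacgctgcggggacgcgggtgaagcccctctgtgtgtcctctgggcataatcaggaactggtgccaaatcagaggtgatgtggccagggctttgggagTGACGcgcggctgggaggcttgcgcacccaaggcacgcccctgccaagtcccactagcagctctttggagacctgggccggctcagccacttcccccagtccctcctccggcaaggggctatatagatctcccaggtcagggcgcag
Pck1: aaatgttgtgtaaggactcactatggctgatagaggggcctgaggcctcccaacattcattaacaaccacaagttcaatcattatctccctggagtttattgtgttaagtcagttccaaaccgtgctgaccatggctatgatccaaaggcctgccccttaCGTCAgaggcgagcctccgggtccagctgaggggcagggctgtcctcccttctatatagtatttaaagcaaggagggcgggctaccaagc
The match began 147 bases before the start of Ucp1 and 90 bases before that of Pck1. On either strand, 5836 of 32851 RefSeq promoters (17.8%) held these letters in the same window. The match describes the sequence and is neither a binding site shown here nor a cause.

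The libraries held 2745808 UMIs (TN) and 2469900 UMIs (1cyc), with medians of 800 and 378 UMIs per deposited barcode and lowest barcodes of 500 and 262 UMIs. The limits on genes and mt- UMIs kept 1303 TN (51.1%) and 1065 1cyc barcodes (24.6%). Scrublet, a doublet caller, marked 10 TN nuclei, none of them a member, and 9 1cyc nuclei, 2 of them members; they were kept. The libraries shared 6 barcodes, of which 1 was a TN member.

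Most members rested on a single Ucp1 molecule. In TN, 68 members had 1 Ucp1 UMI, 13 had 2, 5 had 3 and 2 had 4, for 117 UMIs in all. In 1cyc, 63 had 1, 17 had 2 and 8 had 3, for 121 UMIs. The rule's limit lies between 0 and 1 UMI, so nuclei just outside it are those in which no Ucp1 molecule was captured. Per summed UMI, Ucp1 stood at 1370 CPM (1133 to 1642) in TN members and 1237 CPM (1026 to 1478) in 1cyc members, and the intervals overlapped. Each member holds at least 1 Ucp1 UMI by the rule. These levels thus mostly follow the rule and the depth of the members, with medians of 834.5 UMIs in TN and 1012 UMIs in 1cyc. They cannot say whether Ucp1 differs between the libraries' members.

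Ucp1 UMIs were found mainly in adipocyte nuclei. Without thinning, 110 of 1077 TN adipocyte nuclei (10.2%, 8.47 to 12.2) held one, against 3 of 132 other nuclei (2.27%, 0.471 to 6.50), defined by a stromal, endothelial, macrophage and muscle sum of at least 4 and above the adipocyte sum. Median depths were 857 and 1363 UMIs. In 1cyc the counts were 179 of 925 adipocyte nuclei (19.4%, 16.9 to 22.1) and 2 of 59 other nuclei (3.39%, 0.413 to 11.7), with median depths of 943 and 1246 UMIs. The other nuclei show how often Ucp1 UMIs were found outside adipocyte nuclei, on 3 and 2 nuclei with one. Whether these UMIs came from free RNA was not tested. Of the members' shares below, the part due to free RNA was not tested either.

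Depth had to be made equal before shares were set side by side. Each nucleus was thinned at random to 500 UMIs, which left out 141 shallower 1cyc adipocyte nuclei, 4 1cyc other nuclei and no TN nuclei. Ucp1 was then found in 70 of 1077 TN adipocyte nuclei (6.50%, 5.10 to 8.14) and 85 of 784 1cyc adipocyte nuclei (10.8%, 8.75 to 13.2). It was found in 2 of 132 TN other nuclei (1.52%, 0.184 to 5.37) and 0 of 55 1cyc other nuclei, which allows a share of up to 5.45% (3 counts of 55; the exact interval reaches 6.49%). At this depth the intervals of adipocyte and other nuclei overlapped in TN and did not in 1cyc. Averaged over all possible thinning draws, the adipocyte shares were 6.57% and 11.95%, and those in other nuclei 0.681% and 1.54%.

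Nuclei with Ucp1 and none of the lipogenic genes were a minority of adipocyte nuclei in both libraries. At 500 UMIs they were 63 of 1077 (5.85%, 4.52 to 7.42) in the TN library and 62 of 784 (7.91%, 6.12 to 10.0) in the 1cyc library. The intervals overlapped, and the averages over all draws were 5.83% and 8.45%. With an mt- limit of 2% the shares were 2.97% (1.37 to 5.56) and 9.03% (6.50 to 12.1), and those intervals did not overlap. Without thinning the shares were 8.17% (6.60 to 9.97) and 9.51% (7.70 to 11.6). Among Ucp1-detected nuclei, their share at 500 UMIs was 63 of 70 in the TN library (90.0%, 80.5 to 95.9) and 62 of 85 in the 1cyc library (72.9%, 62.2 to 82.0), with intervals that overlapped. Without thinning it was 80.0% (71.3 to 87.0) and 49.2% (41.6 to 56.7). At 800 UMIs it was 80% (66.3 to 90.0) in TN and 54.3% (43.7 to 64.6) in 1cyc. In both of these settings the intervals did not overlap.

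**Figure D1:**
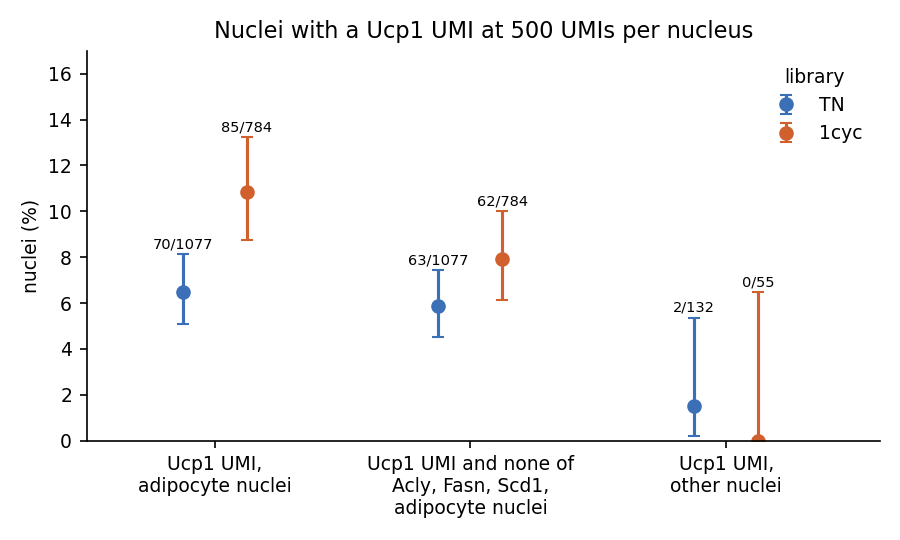
Share of nuclei (%) in each library with a Ucp1 UMI, or with a Ucp1 UMI and none of Acly, Fasn and Scd1, after each nucleus was thinned to 500 UMIs. Points are shares, bars are exact 95% Clopper-Pearson intervals for counting error and the labels give the counts. Adipocyte shares (6.50% and 10.8%) lie above those of other nuclei (1.52% and 0%), with intervals that overlap in TN. The interval for 1cyc other nuclei, the group of 55, reaches 6.49%.

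The lipogenic shares of nuclei with and without Ucp1 depended on the depth at which they were compared. At 500 UMIs the single draw placed them close together within each library. In TN, Acly, Fasn or Scd1 was found in 7 of 70 Ucp1-detected nuclei (10.0%, 4.12 to 19.5) and 113 of 1007 nuclei without Ucp1 (11.2%, 9.34 to 13.3). In 1cyc the shares were 23 of 85 (27.1%, 18.0 to 37.8) and 180 of 699 (25.8%, 22.6 to 29.2). Within each library the intervals overlapped. Averaged over all draws, the shares with and without Ucp1 were 11.17% and 10.34% in TN and 29.35% and 24.74% in 1cyc. The averages with Ucp1 were the higher ones in both libraries at 300, 500 and 800 UMIs. In 1cyc they were 19.86% and 17.29% at 300 UMIs and 42.83% and 32.41% at 800 UMIs. At 800 UMIs, which leaves out more nuclei, the 1cyc shares were 43 of 94 (45.7%, 35.4 to 56.3) with Ucp1 and 140 of 457 (30.6%, 26.4 to 35.1) without, and these intervals did not overlap. Without thinning, the 1cyc shares were 50.8% (43.3 to 58.4) and 38.9% (35.4 to 42.5). Among 1cyc nuclei with Ucp1, median depths were 1312 UMIs with lipogenic UMIs and 1012 UMIs without. Among those without Ucp1 they were 1058 UMIs with lipogenic UMIs and 800.5 UMIs without. A member is thus a nucleus in which these 3 genes were not captured, and at this depth a nucleus that lacks them cannot be told apart from one whose few transcripts were missed.

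The brown adipocyte label was checked on Slc36a2, the marker that the rule did not use. It stood at 527 CPM in TN members on 45 UMIs, 369 CPM in their comparators on 63 UMIs and 26.6 CPM in other nuclei on 6 UMIs. In 1cyc it stood at 613 CPM on 60 UMIs, 441 CPM on 86 UMIs and 26.3 CPM on 2 UMIs. The ratio of members to comparators was 1.43 (0.952 to 2.13) in TN and 1.39 (0.984 to 1.96) in 1cyc, so the members carried the marker well above other nuclei, and above their comparators by an amount whose intervals include 1. The TN ratio was 0.8002 for members with at least 2 Ucp1 UMIs, and the 1cyc ratio 0.979 with an mt- limit of 2%. Cidea, which the rule used, stood at 866 CPM in the TN members and 1002 CPM in the 1cyc members. In mm10 coordinates of GENCODE M21, Slc36a2 (ENSMUSG00000020264) lies on chromosome 11 from 55158470 to 55185077, and Ucp1 (ENSMUSG00000031710) on chromosome 8 from 83290352 to 83298452.

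Markers of other cells were few in the members, and the rule itself disfavours nuclei that hold them. The 9 macrophage markers outside the rule summed to 1 UMI in TN members and 4 UMIs in 1cyc members, with Ptprc and Csf1r at 0 in both. The 11 skeletal muscle markers outside the rule summed to 4 and 7 UMIs. Endothelial markers outside the rule stood at 375 CPM in TN members and 386 CPM in comparators, and at 133 CPM and 313 CPM in 1cyc. Kdr, Cdh5, Tek and Emcn were at 0 in 1cyc members. Pericyte or smooth muscle markers stood at 187 CPM and 252 CPM in TN and 51.1 CPM and 149 CPM in 1cyc, with Pdgfrb, Abcc9, Kcnj8 and Myh11 at 0 in the members of both libraries. The fibroblast or progenitor list was carried by Ebf1, also expressed by adipocytes, which held 384 of its 414 UMIs in TN and 372 of 396 in 1cyc. Its members Dpp4 and Smoc2, which the rule did not use, were at 0 in both libraries. Lymphoid or mast markers stood at 129 CPM in TN members and 99.5 CPM in comparators, and at 123 CPM and 108 CPM in 1cyc. Those levels rested on 11 and 12 member UMIs, and other nuclei had 48.8 CPM and 39.4 CPM. Schwann or neuron markers stood at 176 CPM and 158 CPM in TN and 112.5 CPM and 205 CPM in 1cyc. Blood markers stood at 527 CPM and 386 CPM in TN and 194 CPM and 251 CPM in 1cyc. The mt- share of the summed UMIs was 2.66% in TN members and 2.67% in comparators. In 1cyc it was 1.70% and 1.90%, so the groups were closer in this measure of RNA quality in TN.

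The comparison of members with comparators asks what else was captured in nuclei with Ucp1. In TN, 876 genes had 50 or more UMIs in the 2 sums together. Of these, 41 were at least 1.5-fold higher in members (4.68%) and 73 at least 1.5-fold lower (8.33%), 427 lay above 1 (48.7%) and 449 below (51.3%), and the median log2 ratio was −0.00027. Of 1067 such genes in 1cyc, 72 were higher (6.75%) and 64 lower (6.00%), 543 lay above 1 (50.9%) and 524 below (49.1%), and the median was 0.02. Among the 820 genes measured in both libraries, 6 were at least 1.5-fold higher in both (0.732%), 8 at least 1.5-fold lower in both (0.976%) and 446 lay on the same side of 1 (54.4%). Most of the ratios past 1.5-fold in 1 library were therefore not past it in the other. The genes named next are the 12 highest and 12 lowest, ranked by the interval bound nearest to 1 in the library where that bound was nearer. They had to lie on the same side of 1 in both libraries. Agreement between the libraries and intervals clear of 1 are thus part of the choice, and ratios picked this way tend to lie too far from 1.

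Pck1 came first. It encodes cytosolic phosphoenolpyruvate carboxykinase, which in fat supplies glycerol 3-phosphate, the backbone for re-esterifying fatty acids. In TN it stood at 1592 CPM in members on 136 UMIs and 744 CPM in comparators on 127 UMIs, a ratio of 2.14 (1.67 to 2.75). In 1cyc it stood at 1401 CPM on 137 UMIs and 841 CPM on 164 UMIs, a ratio of 1.67 (1.32 to 2.10). Members were above comparators in both libraries and no interval included 1, traits by which Pck1 was ranked first. At 500 UMIs, Pck1 was found in 52.3% of TN members and 29.0% of TN comparators, and in 49.4% and 27.2% in 1cyc. In other nuclei it stood at 44.4 CPM (TN) and 65.7 CPM (1cyc). Pck1 (ENSMUSG00000027513) lies on chromosome 2 from 173153048 to 173159273, and its ratio stayed above 1.5 in all 12 alternatives of each library that changed nuclei, matching or scaling (1.80 to 2.49 in TN, 1.53 to 2.01 in 1cyc).

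Tfrc encodes the transferrin receptor, through which cells take up iron. It stood at 749 CPM in TN members on 64 UMIs and 351 CPM in comparators on 60 UMIs, a ratio of 2.13 (1.48 to 3.09). In 1cyc it stood at 941 CPM on 92 UMIs and 564 CPM on 110 UMIs, a ratio of 1.67 (1.25 to 2.22). Tfrc was found in 31.8% of TN members and 15.3% of TN comparators at 500 UMIs, and in 35.8% and 24.1% in 1cyc. The gene (ENSMUSG00000022797) lies on chromosome 16 from 32608920 to 32632794. Without nuclei that held an Nnat or Slc7a10 UMI, genes of white adipocytes, the Tfrc ratio was 1.76 (1.22 to 2.54) for TN and 1.36 (1.00 to 1.83) for 1cyc. It was at least 1.5 in all 12 alternatives in TN and in 9 of 12 in 1cyc.

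Gnas encodes the alpha subunit of the stimulatory G protein that couples beta-adrenergic receptors to adenylyl cyclase. In TN it stood at 2903 CPM in members on 248 UMIs and 1388 CPM in comparators on 237 UMIs, a ratio of 2.09 (1.74 to 2.51). In 1cyc it stood at 3272 CPM on 320 UMIs and 2445 CPM on 477 UMIs, a ratio of 1.34 (1.16 to 1.54). Between the libraries, the ratio of 1cyc to TN was 1.13 (0.952 to 1.33) for members and 1.76 (1.505 to 2.07) for comparators, so the gap was narrower in 1cyc. This difference between libraries was not tested. Other nuclei stood at 470 CPM and 512 CPM. The Gnas locus (ENSMUSG00000027523, chromosome 2 from 174284320 to 174346744) also gives overlapping and antisense transcripts, and whether strand was used in counting is not stated.

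Other genes ranked as higher had smaller or less certain ratios. Tusc3, a subunit of the oligosaccharyltransferase, had ratios of 1.54 (1.20 to 1.97) in TN and 1.42 (1.10 to 1.82) in 1cyc. Dgat2, which adds the last fatty acid of a triglyceride, had 1.38 (1.06 to 1.80) and 1.43 (1.16 to 1.77). For both genes the members exceeded the comparators in each library with intervals above 1, which the ranking favours.
For a further 6 genes at least 1 interval included 1. The epidermal growth factor receptor family gene Erbb4 had 1.14 (0.973 to 1.34) and 1.34 (1.14 to 1.57). Limch1, an actin-binding protein gene, had 1.61 (0.953 to 2.70) on 29 member UMIs in TN and 2.04 (1.31 to 3.18) on 44 in 1cyc. For the 20 TN members with at least 2 Ucp1 UMIs the Limch1 ratio was 0.5001 (0.0906 to 1.85), on 3 UMIs. Pde4d, which breaks down cyclic AMP, had 1.44 (1.16 to 1.78) and 1.16 (0.959 to 1.39), and 0.912 in 1cyc with an mt- limit of 2%. Ebf1, Tob2 and the neurotrophin receptor gene Ntrk3 lay between 1.08 and 1.61 in TN and between 1.11 and 1.42 in 1cyc.

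**Figure D2:**
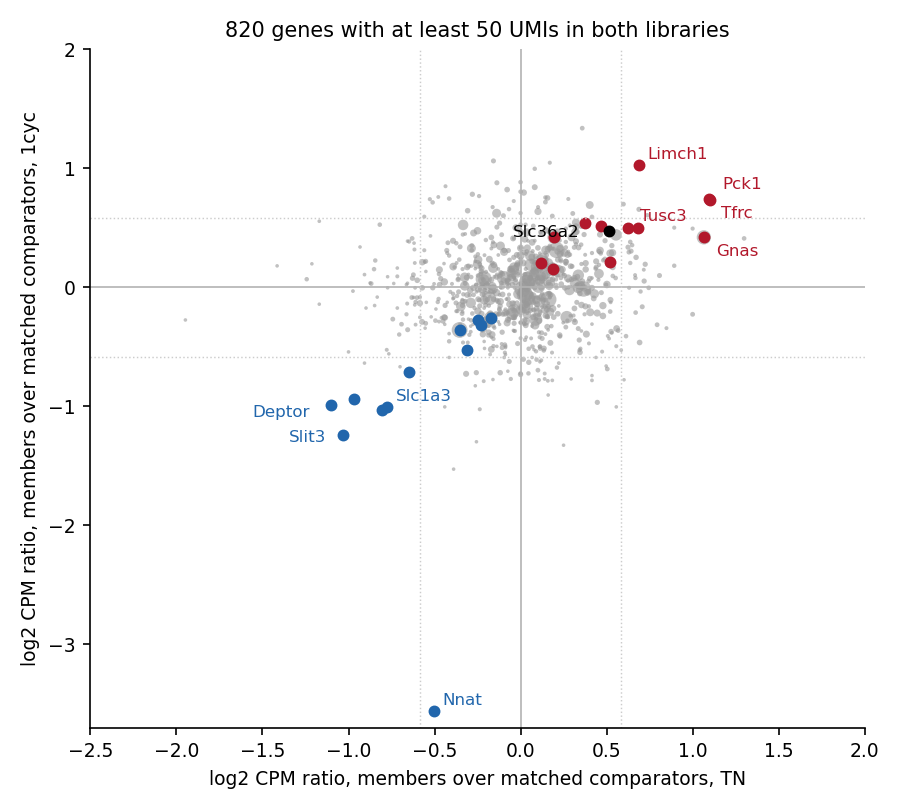
Each point is 1 of 820 genes, placed by the log2 CPM ratio of members over matched comparators in TN (x axis) and 1cyc (y axis), with larger grey points for more UMIs and dotted lines at 1.5-fold. Red and blue points are the 12 highest and 12 lowest genes and black is Slc36a2; most genes gather around 0 on both axes, Pck1, Tfrc and Gnas lie to the upper right, and Nnat lies far below in 1cyc (ratio 0.0849) and near the others in TN (0.705).

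Levels of the 3 leading genes were also read against the number of Ucp1 UMIs, as a description. Tfrc stood at 351, 566 and 1281 CPM in TN nuclei with 0, 1 and at least 2 Ucp1 UMIs, and at 564, 638 and 1519 CPM in 1cyc. The step was largest from 1 to at least 2 UMIs in both libraries. Gnas stood at 1388, 2502 and 4071 CPM in TN and at 2445, 3300 and 3217 CPM in 1cyc. Pck1 stood at 744, 1558 and 1692 CPM in TN and at 841, 1276 and 1638 CPM in 1cyc. For Pck1 most of the difference was thus between 0 and 1 UMI, while Gnas in 1cyc did not go further up. Slc36a2 stood at 369, 582 and 366 CPM in TN, with no steady order, and at 441, 576 and 685 CPM in 1cyc, each higher than the one before. The groups with at least 2 UMIs held 20 TN and 25 1cyc nuclei, and their median depths of 1013 and 1215 UMIs exceeded those of the nuclei with 1 UMI (827 and 906).

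**Figure D3:**
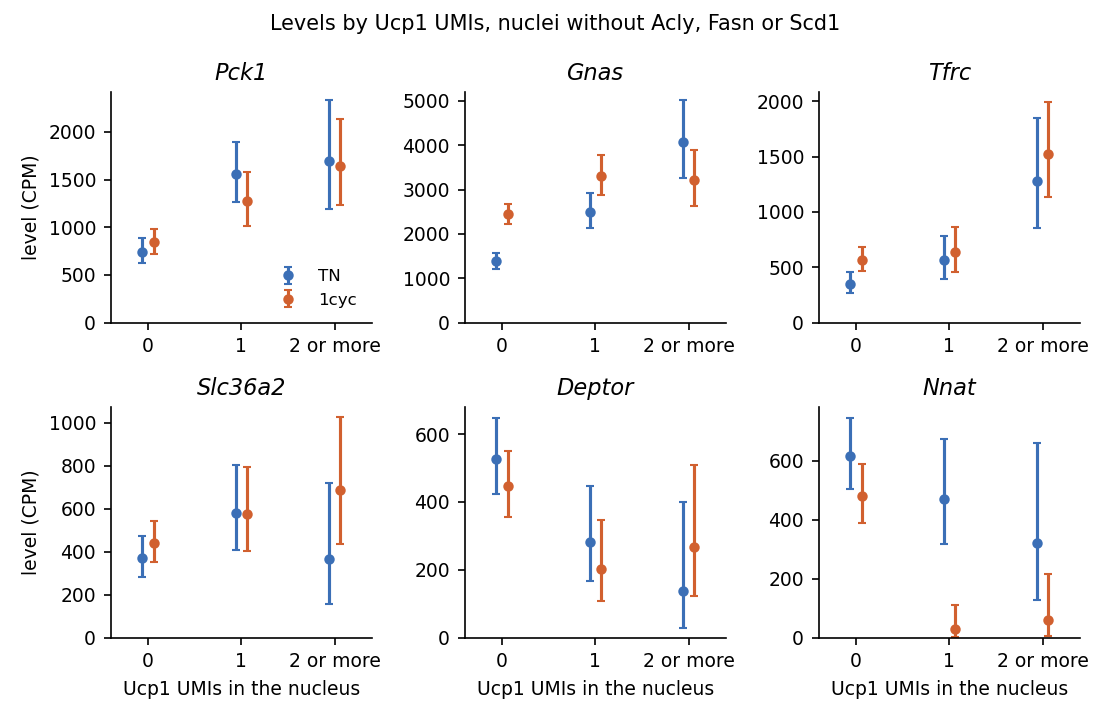
Level in CPM (y axis, from 0, own scale per gene) of 6 genes in nuclei without Acly, Fasn or Scd1 that held 0 (matched comparators), 1 or at least 2 Ucp1 UMIs (x axis). Points are summed levels of each library and bars exact 95% Poisson intervals for counting error; Tfrc is highest at 2 or more UMIs in both libraries (1281 and 1519 CPM), and Nnat is low in 1cyc nuclei with Ucp1 (31.1 and 59.6 CPM).

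Genes with a lower level in members included Deptor and Slc1a3. Deptor encodes an inhibitor of mTOR kinase. It stood at 246 CPM in TN members on 21 UMIs and 527 CPM in comparators on 90 UMIs, a ratio of 0.467 (0.275 to 0.757). In 1cyc it stood at 225 CPM on 22 UMIs and 446 CPM on 87 UMIs, a ratio of 0.504 (0.301 to 0.813). Deptor was found in 10.2% of members and 22.7% of comparators in TN and in 8.64% and 19.8% in 1cyc, at 500 UMIs. Slc1a3, a glutamate transporter gene, had ratios of 0.584 (0.384 to 0.867) and 0.499 (0.317 to 0.760). With 1 comparator per member the TN ratio of Slc1a3 was 1.06, and with an mt- limit of 2%, which left 25 TN members, that of Deptor was 1.05.
Fam13a rested on many more UMIs. It stood at 3852 CPM in TN members on 329 UMIs and 4924 CPM in comparators on 841 UMIs. The 2 ratios were 0.782 (0.687 to 0.890) and 0.780 (0.690 to 0.881). Its values were the closest between the libraries among the 12 lower genes, and they did not reach 1.5-fold.

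Some of the lower genes had UMIs concentrated in few nuclei. Nnat, the imprinted neuronatin gene, had 4 UMIs in 1cyc members and 94 in their comparators, a ratio of 0.0849 (0.0227 to 0.225), and 37 and 105 UMIs in TN, a ratio of 0.705 (0.471 to 1.03). Nuclei with an Nnat or Slc7a10 UMI were 7 of 88 members (7.95%, 3.26 to 15.7) and 27 of 176 comparators (15.3%, 10.4 to 21.5) in TN, and 4 of 88 (4.55%, 1.25 to 11.2) and 13 of 176 (7.39%, 3.99 to 12.3) in 1cyc. Slit3, a secreted guidance ligand that is high in other nuclei (1646 and 1971 CPM), had ratios of 0.488 (0.288 to 0.794) and 0.422 (0.239 to 0.708). Without the Nnat or Slc7a10 nuclei these were 0.588 (0.259 to 1.22) and 1.38 (0.712 to 2.61), while Deptor had 0.487 (0.278 to 0.812) and 0.474 (0.276 to 0.779). Slit3 was found in 11.1% of members and 11.1% of comparators in 1cyc at 500 UMIs.
Ghr, the growth hormone receptor gene, had 0.886 (0.766 to 1.02) in TN. In 1cyc it had 0.836 (0.709 to 0.982), and 1.01 without those nuclei. Rock1, Esr1, Nrip1, Fry, Car3 and Strn3 completed the 12, with ratios from 0.510 to 0.852 in TN and from 0.488 to 0.826 in 1cyc. Without the Nnat or Slc7a10 nuclei, Rock1 had 0.489 and 0.534, Esr1 0.688 and 0.664, Nrip1 0.625 and 0.683 and Strn3 0.745 and 0.679. All were still below 1, while Car3 had 1.24 and 1.22. In TN, though, the intervals of Esr1 (0.398 to 1.15), Nrip1 (0.274 to 1.30) and Strn3 (0.544 to 1.01) then included 1. That of Rock1 (0.228 to 0.959) did not. Fry had 0.9845 (0.766 to 1.26) in TN without those nuclei, close to 1. Adrb3, the beta-3 adrenergic receptor gene, was below the count minimum for ranking and was picked after its values were seen: it had 1 UMI in TN members and 12 in comparators, and 0 and 18 in 1cyc.

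Gene lists were read by their counts and sums, with the genes of the rule left out. The counts below are to be read beside those of all genes measured. Of these, 48.7% lay above 1 and 51.3% below in TN, and 50.9% and 49.1% in 1cyc. On the cyclic AMP and adrenergic signalling list, 6 of 28 genes were measured in TN, 4 above 1 and 2 below, with a median log2 ratio of 0.09. In 1cyc 7 were measured and all 7 lay above 1 (median 0.25; 50.9% of all genes measured there lay above 1). The list summed to 9272 CPM in members and 7078 CPM in comparators in TN (ratio 1.31, 1.20 to 1.43), and to 10398 and 8985 CPM in 1cyc (1.16, 1.07 to 1.25). Gnas carried much of this: without it the ratios were 1.12 (1.01 to 1.24) and 1.09 (0.992 to 1.20). At the low end stood Akap13, an anchoring protein gene, at 0.822 (0.518 to 1.27) in TN, and Prkar2b, a regulatory subunit of protein kinase A, at 1.03 (0.867 to 1.22) in 1cyc.

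Of the triglyceride synthesis and fatty acid uptake list, 9 of 19 genes were measured in each library, with 5 above 1 in TN (median 0.13) and 7 in 1cyc (median 0.16). The sums were 8687 and 7348 CPM in TN (ratio 1.18, 1.08 to 1.30), and 9569 and 7894 CPM in 1cyc (1.21, 1.12 to 1.32). Without Pck1 they gave 1.07 (0.972 to 1.19) and 1.16 (1.06 to 1.26). Gpat4, a glycerol 3-phosphate acyltransferase gene, was lowest in TN at 0.815 (0.472 to 1.36), and Slc27a1, a fatty acid transporter gene, in 1cyc at 0.665 (0.360 to 1.17).

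Thermogenic genes other than Ucp1 had sums close to those of the comparators. Of 35 genes outside the rule 10 were measured in TN, 7 above 1 and 3 below (median 0.05), and 13 in 1cyc, 10 above and 3 below (median 0.15). The sums were 11391 and 11007 CPM in TN (ratio 1.03, 0.957 to 1.12), and 13792 and 12871 CPM in 1cyc (1.07, 1.00 to 1.14), where the ratio lay below 1 in 2 alternatives: 0.9855 with an mt- limit of 2% and 0.947 for members with at least 2 Ucp1 UMIs. Esrra, an orphan nuclear receptor of mitochondrial genes, was highest in 1cyc at 1.86 (1.07 to 3.22), and Zbtb16, a zinc finger regulator, lowest in TN at 0.613 (0.367 to 0.990) and in 1cyc at 0.760 (0.489 to 1.15). Prdm16, which maintains brown fat identity, had 1.16 (0.708 to 1.87) and 1.39 (0.971 to 1.97). The coactivator gene Ppargc1a had 0.974 (0.532 to 1.73) and 1.06 (0.681 to 1.62).

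Fatty acid synthesis genes outside the rule had a summed ratio below 1 in TN and near 1 in 1cyc. In TN all 5 measured genes lay below 1 (median −0.19), as did 51.3% of all genes measured there. They ran from Acaca at 0.793 (0.620 to 1.01) up to the elongase gene Elovl6 at 0.985 (0.629 to 1.52). The sums were 4156 and 4783 CPM (ratio 0.869, 0.765 to 0.985). For TN members with at least 2 Ucp1 UMIs the ratio was 1.11 (0.867 to 1.42). In 1cyc 2 of 7 lay above 1 and 5 below (median −0.04), and the sums were 6277 and 5864 CPM (1.07, 0.969 to 1.18). Here the median and the sum differ in direction. Acaca, the gene of acetyl-CoA carboxylase, had 1.44 (1.20 to 1.72) on 212 and 294 UMIs, and Thrsp, a lipogenic regulator, had 0.676 (0.386 to 1.14). Both members and comparators were chosen to lack Acly, Fasn and Scd1.

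Fuel use lists had intervals above 1 in 1cyc and intervals that included 1 in TN, and the difference between the libraries was not tested. Glucose uptake and glycolysis summed to 1.29 times the comparators in 1cyc (1.12 to 1.48; 5 of 6 genes above 1, median 0.50) and 1.14 times in TN (0.958 to 1.35; 2 of 3, median 0.37). Tkt, transketolase, had 1.39 (0.948 to 2.02) in TN and 1.43 (1.08 to 1.89) in 1cyc. Fatty acid oxidation had 0.982 (0.869 to 1.11; 4 of 9 above 1) in TN and 1.17 (1.06 to 1.30; 8 of 11) in 1cyc, where Hadha, a subunit of the trifunctional protein, was highest at 1.74 (1.25 to 2.4). The citrate cycle and branched-chain amino acid list had 1.09 (0.974 to 1.22; 6 of 9) and 1.14 (1.04 to 1.26; 9 of 10).
Vascular growth factors had a sum ratio of 1.23 (1.07 to 1.399) in TN, with Vegfa, the main angiogenic factor, at 1.37 (1.05 to 1.79), and 0.978 (0.868 to 1.10) in 1cyc. Circadian clock genes had 0.823 (0.682 to 0.990) and 1.14 (0.972 to 1.35), with the nuclear receptor gene Rora at 0.820 (0.634 to 1.05) and 1.25 (1.00 to 1.56). The white adipocyte list had 0.981 (0.768 to 1.25) in TN. In 1cyc it had 0.494 (0.356 to 0.674), with Nnat holding 94 of the comparators' 206 UMIs. Lipolysis (1.04 and 1.06), glycogen metabolism (1.07 and 1.01), insulin signalling (0.962 and 1.01) and nuclear-encoded electron transport (1.03 and 0.948) had intervals that included 1 in both libraries. Nuclear retained RNA had 1.01 (0.984 to 1.03) and 0.989 (0.968 to 1.01), and mt- genes 0.998 (0.948 to 1.05) and 0.895 (0.844 to 0.948).

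**Figure D4:**
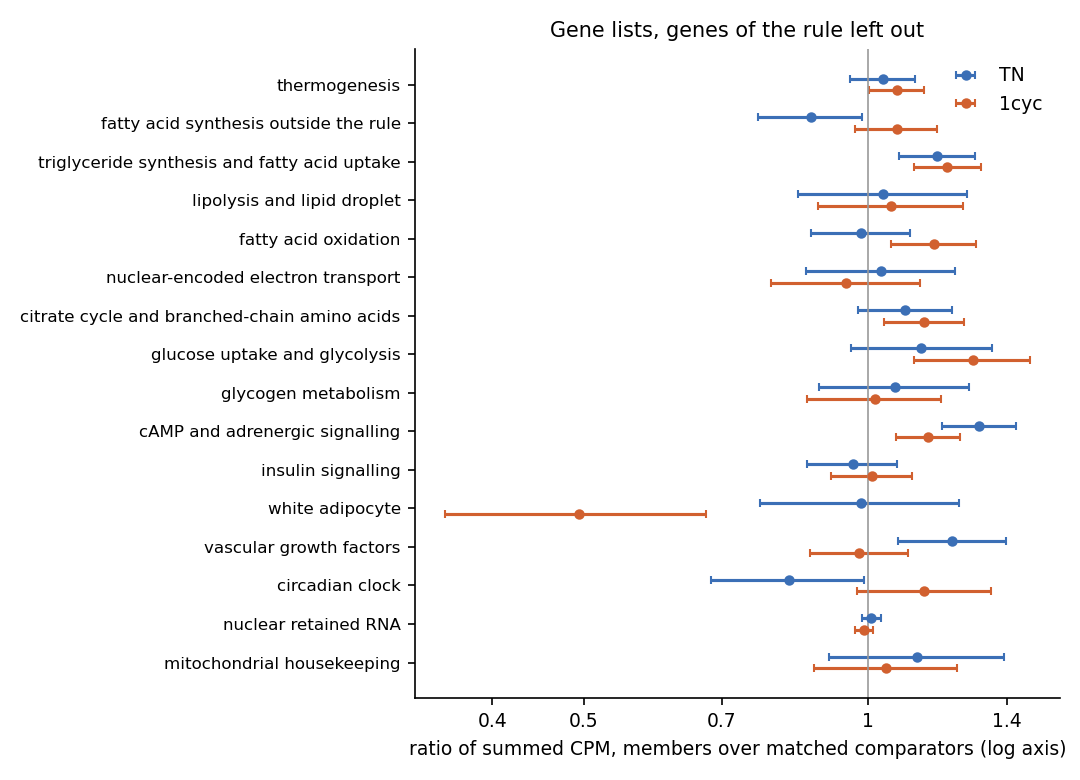
Ratio of summed CPM, members over matched comparators (x axis, log scale), for 16 gene lists with the genes of the rule left out. Points are the 2 libraries and bars 95% intervals for counting error; cyclic AMP signalling and triglyceride synthesis lie above 1 in both libraries, thermogenesis lies close to 1, and the white adipocyte list lies at 0.494 in 1cyc.

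The 4 adipocyte classes cut by Ucp1 and lipogenic UMIs differ in depth, and their levels are given side by side. In TN, Tfrc stood at 749 CPM in members, 288 CPM (116 to 594) in the 22 nuclei with Ucp1 and lipogenic UMIs, 262 CPM in the 180 with lipogenic UMIs only and 305 CPM in the 787 with neither. In 1cyc it stood at 941, 700 (562 to 862), 524 and 592 CPM, over 88, 91, 290 and 456 nuclei. The Tfrc intervals of members (577 to 957 in TN and 758 to 1154 in 1cyc) overlapped those of nuclei with Ucp1 and lipogenic UMIs. Pck1 was also highest in members, at 1592, 1277, 875 and 832 CPM in TN and 1401, 1177, 958 and 786 CPM in 1cyc. Among the Ucp1-detected nuclei, the Pck1 intervals of members (1336 to 1883 and 1176 to 1656) overlapped those of nuclei that also held lipogenic UMIs (868 to 1812 and 995 to 1383). Acaca had another order. It stood at 1124 CPM (910 to 1372) in TN members and 1442 CPM (1004 to 2005) in nuclei with both, with intervals that overlapped. The 1cyc levels were 2167 CPM (1885 to 2480) and 2769 CPM (2485 to 3075), against 1779 CPM (1655 to 1910) in nuclei with neither.

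Members of the libraries were then set beside each other, with the comparators' own ratios beside them. In the 2 member sums together, 572 genes had 50 or more UMIs. Of these, 52 were at least 1.5-fold higher in 1cyc (9.09%) and 42 at least 1.5-fold lower (7.34%), 311 lay above 1 (54.4%) and 261 below (45.6%), with a median log2 ratio of 0.04. Among 1393 genes in the comparators, 116 were higher (8.33%) and 86 lower (6.17%), 721 lay above 1 (51.8%) and 672 below (48.2%), with a median of 0.02. Ucp1 itself had a ratio of 0.903 (0.695 to 1.18), which cannot be read as likeness because the rule gives each member at least 1 Ucp1 UMI.

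Of the 8 genes named as higher in 1cyc members, Plin2, a lipid droplet coat protein gene, stood at 129 CPM on 11 UMIs in TN and 399 CPM on 39 UMIs in 1cyc, a ratio of 3.096 (1.56 to 6.70), and had 2.15 in the comparators. Slc4a4, a sodium bicarbonate cotransporter gene, had 2.14 (1.56 to 2.97) and 1.77. Acaca stood at 1124 CPM on 96 UMIs and 2167 CPM on 212 UMIs, a ratio of 1.93 (1.51 to 2.48), and had 1.06 in the comparators.
So Plin2 and Slc4a4 stood higher in 1cyc in both groups, and for Acaca the matched comparators' ratio lay near 1. The wider class without Ucp1 or lipogenic UMIs, from which they were drawn, held more Acaca in 1cyc. Its level was 1779 CPM (1655 to 1910) there, while the TN class had 1357 CPM (1278 to 1440). Nuclei with lipogenic UMIs only were also higher in 1cyc, at 2875 CPM against 1501 CPM. These classes were not matched in depth. A higher Acaca level in 1cyc was thus not limited to members. Whether the members' ratio differs from the comparators' was not tested. Ank, a pyrophosphate transport gene, had 2.01 (1.26 to 3.28) and 1.07, and Rnf150 2.39 (1.29 to 4.64) and 0.962. Larp1b, Acyp2 and Ptprg completed the 8, with ratios of 2.13, 1.94 and 1.69.

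On the lower side, Bnip3, a mitophagy receptor gene, stood at 597 CPM on 51 UMIs in TN members and 266 CPM on 26 UMIs in 1cyc members, a ratio of 0.445 (0.266 to 0.728), with 0.706 in the comparators. Pik3r1, the regulatory subunit of phosphoinositide 3-kinase, had 0.501 (0.311 to 0.794) and 0.934. Fam126b had 0.448 (0.248 to 0.787) and 0.910. Taco1, a translational activator of a mitochondrial cytochrome oxidase subunit, rested on 368 and 289 UMIs with 0.686 (0.586 to 0.802) and 0.892. Ghr had 0.680 (0.567 to 0.816) and 0.721, nearly the same. Svep1, Babam2 and Cped1 had 0.528, 0.502 and 0.5498.

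**Figure D5:**
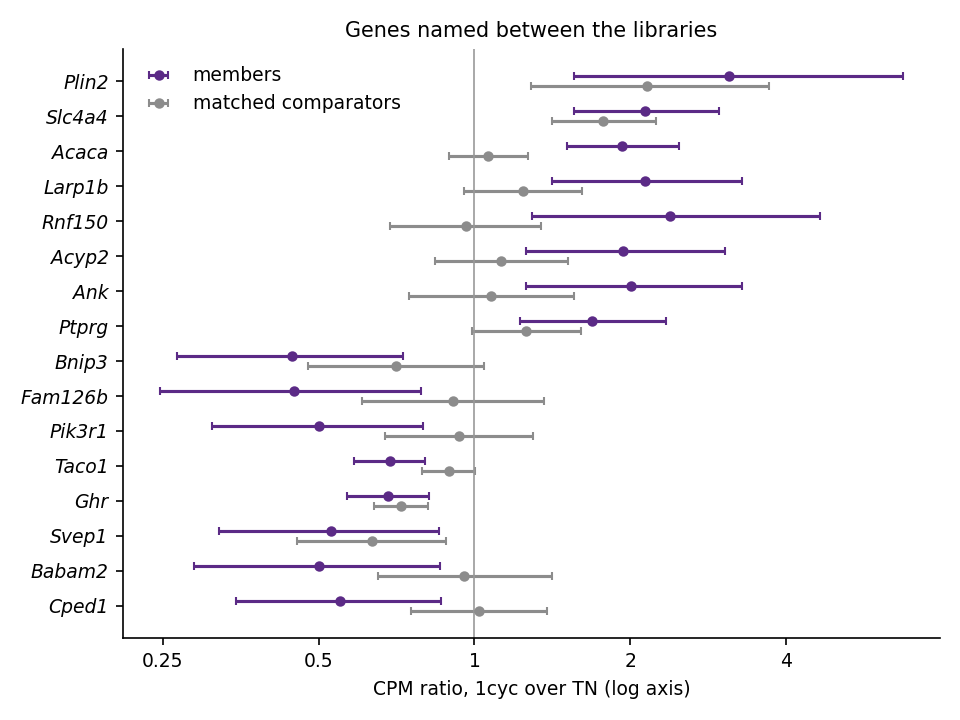
CPM ratio of 1cyc over TN (x axis, log scale) for the 8 highest and 8 lowest genes among members (purple) and for the same genes in matched comparators (grey), with 95% intervals for counting error. Plin2 and Slc4a4 lie above 1 in both groups. Acaca lies at 1.93 in members and 1.06 in the matched comparators, which are only part of the nuclei without Ucp1 or lipogenic UMIs.

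Among the lists, fatty acid synthesis outside the rule had 4 of 4 measured genes above 1 between the libraries' members (median 0.60; 54.4% of all genes lay above 1). Its sum was 1.51 times as high in 1cyc members (1.32 to 1.73) and 1.23 times in comparators (1.12 to 1.34). Elovl6 had 1.67 (1.08 to 2.62) in members, and Mlxipl, the gene of the glucose-responsive factor ChREBP, 1.18 (0.792 to 1.78). So members, which lacked Acly, Fasn and Scd1 UMIs by choice, still held more transcripts of other lipogenic genes in 1cyc than in TN. Thermogenesis had 9 of 10 above 1 (median 0.36) and 1.21 (1.11 to 1.32) in members and 1.17 (1.10 to 1.24) in comparators. Kcnk3, a potassium channel gene, had the highest ratio at 1.88 (1.08 to 3.37) and Esrrg the lowest at 0.864 (0.729 to 1.02).
Fatty acid oxidation had 7 of 8 above 1 and a sum ratio of 1.26 (1.11 to 1.43), with 1.055 (0.961 to 1.158) in comparators. Glycolysis had 3 of 3 above 1 and 1.33 (1.12 to 1.59), with 1.178 (1.029 to 1.35) in comparators. Cyclic AMP signalling had 5 of 6 above 1 and 1.12 (1.02 to 1.23). Its comparators had the larger ratio, 1.269 (1.179 to 1.367). The white adipocyte sum had 0.428 (0.3001 to 0.604) in members, on 51 and 104 UMIs, and 0.851 (0.699 to 1.03) in comparators. Over all nuclei with neither Ucp1 nor lipogenic UMIs, not matched in depth, this sum was also lower in 1cyc. It stood at 974 CPM (883 to 1072) there, while TN had 1791 CPM (1700 to 1885). Vegfa had 1.501 (1.16 to 1.95) in members and 1.90 (1.55 to 2.34) in comparators. Angpt1, an endothelial stabilising factor gene, had 0.665 (0.507 to 0.870) and 0.9299 (0.760 to 1.14). Technical values moved with these ratios: mt- genes had 0.640 (0.60 to 0.682) in members and 0.713 (0.683 to 0.745) in comparators, and haemoglobin and other blood markers 0.369 (0.204 to 0.643) and 0.650 (0.440 to 0.955). Their part in the results was not tested.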

How the data were processed

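Each library was deposited by the authors as a raw count matrix of UMIs per gene and barcode, with no normalization. The submitters' processing notes name mm10 and Cell Ranger 3, whose version is 3.1.0 per the file headers. The annotation, strand setting and treatment of intronic reads: not given in the sources used here. GENCODE M21 gave positions for 30934 of 31053 gene identifiers and may differ from the authors' annotation. Counts of identifiers that share a symbol were added.

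The members, the gene lists (17 of function and 10 of markers) and the rules were chosen with earlier results of these data known. Python 3.11.15, numpy 2.4.6, scipy 1.17.1 and scanpy 1.11.5 (Scrublet) were used. UMIs were summed over members and over comparators. A gene was measured with at least 50 UMIs over both sums and was counted as higher or lower at 1.5-fold. Named genes were the 12 highest and 12 lowest of those on the same side of 1 in both libraries, by the interval bound nearest to 1, and the 8 highest and 8 lowest between the libraries' members. One of the named genes is not reported here. Genes of the rule, mt-, ribosomal protein and haemoglobin genes and unnamed models were not ranked. Ratios carry exact conditional binomial, levels exact Poisson and shares exact Clopper-Pearson intervals at 95%. With 1 library per condition, and nuclei that are not replicates, no test was made and no p-value computed. The scripts were tested on simulated data. Thinning drew each nucleus once. The draw was changed after a first result so that a nucleus keeps its draw in every setting, and the averages over all draws were added then.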

Additional observations from a re-analysis of the deposited data

Results flagged for a closer look

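Pygl, the liver-type glycogen phosphorylase gene, was the only 1 of 820 genes (0.122%) at least 1.5-fold apart in opposite directions in the libraries. Its ratio of members to comparators was 1.52 (0.831 to 2.73) in TN on 22 and 29 UMIs and 0.584 (0.279 to 1.13) in 1cyc on 12 and 41 UMIs. Both intervals included 1 and the difference was not tested.

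Barcodes left out by the mt- limit also held Ucp1. In 1cyc the 3237 barcodes at 5% mt- UMIs or more had 230 CPM of Ucp1 (201 to 262) when mt- UMIs were left out of the total, against 92.8 CPM (74.3 to 114) in the 1211 such TN barcodes. Kept nuclei of all classes had 254 CPM in 1cyc and 107 CPM in TN by the same measure. No barcode at or over the limit entered any comparison.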

How the results depend on the processing

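No paired analysis was possible because each condition is 1 library and no result comes from a test. The limits are 1 pooled library per condition, members that mostly rest on 1 Ucp1 UMI, and few UMIs per gene. Of 598 ratios of named genes under alternatives 564 stayed inside the interval of the reported value, as did 378 of 408 list sums and 48 of 60 shares. The alternatives reuse many of the same nuclei and UMIs, and removing Scrublet calls in TN changed no member or comparator. These counts therefore cannot measure how well the values would repeat.

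Among shares, an mt- limit of 2% gave 2.97% members in TN and 9.03% in 1cyc, and Ucp1 in 3.63% of TN adipocyte nuclei. Thinned to 300 UMIs, Ucp1 was found in 5.01% of TN and 8.31% of 1cyc adipocyte nuclei and in 0% of TN other nuclei, which allows up to 2.27% (3 counts of 132; the exact interval reaches 2.76%). Lipogenic UMIs were then found in 6.06% (TN) and 16.4% (1cyc) of nuclei without Ucp1. Thinned to 800 UMIs, they were found in 20% and 45.7% of nuclei with Ucp1 and in 15.4% and 30.6% without, and Ucp1 in 17.1% of 1cyc adipocyte nuclei. A second thinning draw, added after seeing the data, gave member shares of 5.66% in TN and 8.93% in 1cyc.

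Counts of genes past 1.5-fold depend on how many are measured. In TN, 346 were higher and 496 lower with unmatched comparators, 250 and 389 with a minimum of 20 UMIs, 5 and 14 with 100 UMIs, 19 and 19 with an mt- limit of 2%, and 16 and 9 with at least 2 Ucp1 UMIs. There 33 were lower with 1 comparator per member and 45 with at least 500 genes, and 27 were higher without Nnat or Slc7a10 nuclei, an alternative added after seeing the data. In 1cyc, 147 and 222 passed with unmatched comparators, 322 and 440 with 20 UMIs, 12 and 17 with 100 UMIs, 40 and 36 with 1 comparator, and 26 and 22 with at least 2 Ucp1 UMIs, and 37 were higher with an mt- limit of 2%. Between the libraries' members, 308 and 236 passed with 20 UMIs, 14 and 11 with 100 UMIs, and 34 and 17 with an mt- limit of 2%.

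Some ratios crossed 1: 16 of the 598 of named genes and 37 of the 408 list sums. In TN, Slc1a3 had 1.06 with 1 comparator per member, Deptor 1.05 with an mt- limit of 2%, and fatty acid synthesis 1.11 and Limch1 0.5001 with at least 2 Ucp1 UMIs. In 1cyc, thermogenesis had 0.9855 with an mt- limit of 2% and 0.947 with at least 2 Ucp1 UMIs, where Car3 had 1.08. Without Nnat or Slc7a10 nuclei, Slit3 had 1.38, Ghr 1.01, Car3 1.22 and the white adipocyte list 1.21 in 1cyc, and Car3 had 1.24 in TN. The value of the white adipocyte list follows from the construction, since Nnat and Slc7a10 are on it. For the others the cause was not tested. Leaving out the shared barcodes, also added later, left the counts at 40 and 72 in TN.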

Other observations

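Adipocyte nuclei with at least 2000 UMIs were set apart after the shares by depth were seen. In TN, 1 of 77 (1.30%, 0.0329 to 7.02) held Ucp1, against 109 of 1000 shallower nuclei (10.9%, 9.04 to 13). In 1cyc, 20 of 66 (30.3%, 19.6 to 42.9) held it, against 159 of 859 (18.5%, 16.0 to 21.3). Ucp1 was thus found in a smaller share of the deepest TN adipocyte nuclei than of the shallower ones, although each held more UMIs. Those UMIs need not all be adipocyte RNA. In TN, the 787 nuclei with neither Ucp1 nor lipogenic UMIs held 28043 blood marker UMIs (34444 CPM). The 176 matched comparators among them held 66. How many lay in the deepest nuclei, and their part in the values here, was not tested. The deepest TN nuclei also carried white adipocyte transcripts. Nuclei with an Nnat or Slc7a10 UMI were 30 of the 77 in TN (39.0%, 28.1 to 50.8) and 7 of the 66 in 1cyc (10.6%, 4.37 to 20.6), and the white adipocyte list summed to 4031 CPM and 1693 CPM, against 1340 CPM and 669 CPM in the shallower nuclei. Without the Nnat or Slc7a10 nuclei, Ucp1 was found in 1 of 47 deep TN nuclei (2.13%, 0.0539 to 11.3) and 19 of 59 deep 1cyc nuclei (32.2%, 20.6 to 45.6). The thermogenesis list outside the rule stood at 8780 CPM and 13081 CPM in those nuclei.

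Pck1, Gnas and Tfrc were also present in the barcodes over the mt- limit. Pck1 had 610 and 718 CPM in the TN and 1cyc barcodes, Gnas at 1163 and 2033 CPM and Tfrc at 224 and 595 CPM, all without mt- UMIs.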
